A study of Oryctolagus cuniculus with 8 samples.

Results

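The genes described here encode the proteins of the cytosolic ribosome. They were taken from the deposited expression table by their symbols: protein-coding genes whose name begins with RPL or RPS followed by a digit, together with RPSA, RPLP0, RPLP1 and RPLP2, and without the kinases whose names begin with RPS6K. The rule named 37 of the 19293 protein-coding genes. Of these, 33 reached 1 FPKM in at least 2 libraries and were tested among 12204 protein-coding genes that did so. FPKM is the number of sequenced fragments on a gene, scaled for the length of the gene and the depth of the library.

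The RNA came from whole retinas of wild-type (WT) male Chinchilla rabbits, which were 12 to 16 weeks old when obtained and about 10 months old when studied, after 6 months on a diet. Rabbits of the ND group ate standard chow. The HFD added 10% lard and 0.5% cholesterol to it, the HSD added 40% sucrose, while rabbits on HFSD ate 35% sucrose together with as much lard and cholesterol as in HFD. Each diet had 2 retinas, and the labels do not say whether the 2 came from separate rabbits, so p-values measure the spread between these samples only.

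A ribosome consists of a small subunit, which decodes the mRNA, and a large subunit, which joins the amino acids. Each subunit is built on ribosomal RNA, and most of its proteins are present in a single copy per ribosome, so the cell needs them in matched amounts. Their mRNAs are short and abundant and start with a run of pyrimidines (the TOP motif), through which mTOR signalling controls their translation together with that of several translation factors. Photoreceptors renew their light-sensing outer segments throughout life and therefore have a steady demand for protein synthesis.

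Of the 37 genes, 18 encode small subunit proteins and 14 encode large subunit proteins, and 17 and 13 of them were tested. Another 3 are paralogs of a ribosomal protein, of which RPL26L1 was tested. RPL7L1, a factor in the assembly of the large subunit, and RPL36A-HNRNPH2, named as a readthrough of RPL36A into the neighbouring gene, fit the rule by name and were also tested. The gene model of RPL36A-HNRNPH2 had only 321 bases, and whether it covers RPL36A alone was not tested. It was not counted among the large subunit genes. RPS27, RPL39 and RPL10L were listed at 0 in all 8 libraries. RPL3L was left out because 1 FPKM was reached in HSD replicate 2 alone (3.08 FPKM, against 0.348 to 0.856 FPKM in the other 7 libraries), whereas the lowest tested gene, RPL32, lay between 12.3 and 69.6 FPKM. The table carried 32 of 79 standard ribosomal proteins by symbol, and RPSA, RPS6, RPS19, RPS26, RPL3, RPL22, RPL22L1, RPLP0, RPLP1 and RPLP2 were not analysed here. Ribosomal protein genes have many near-identical pseudogenes in mammals. Because the authors discarded reads that mapped to several places, each level rests on uniquely placed reads and is uncertain to that extent.

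The depth by which the libraries were scaled ran from 15764577 to 22785832 fragments, so that 1 fragment on a gene of 1000 bases was worth 0.0439 to 0.0634 FPKM. The tested ribosomal protein genes had between 98 and 26358 fragments per library, and 5 of the 33 had fewer than 1000 in any library. The rod gene SAG (2826 to 3820 FPKM) marked the tissue as retina in every library. HSD replicate 2 stood apart by its muscle genes, whose summed level (7 of 8 listed genes had a row) was 438 FPKM against 1.34 to 3.45 FPKM in the other libraries. HFD replicate 1 stood apart by gene length: relative to the mean of 8 libraries, genes up to 500 bases were higher there by a median log2 of 0.24 and genes over 5000 bases were lower by -0.17.

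Ribosomal protein genes were among the most abundant mRNAs of the retina. Their mean level over 8 libraries ran from 35.2 to 956 FPKM with a median of 298 FPKM, against 13.8 FPKM for all tested genes, and the median ribosomal protein gene stood at the 98.0 percentile. Among the highest were RPL23A (956 FPKM), RPS3 (902 FPKM), RPL4 (821 FPKM) and RPS15 (774 FPKM). RPL23A and RPL4 border the exit tunnel of the large subunit, RPS3 lies at the mRNA entry of the small subunit, and RPS15 lies near its decoding site. The 5 lowest were RPL32 (35.2 FPKM), RPL26L1 (35.4 FPKM), RPL7L1 (63.0 FPKM), RPL37 (116 FPKM) and RPL10 (139 FPKM). Thus 2 of the 5 lowest were not standard ribosomal proteins. RPL10, which joins the large subunit late in its assembly, had the longest gene model of the set (5589 bases), and FPKM divides by this length. Small subunit genes had a median level of 391 FPKM and ranged from 148 to 902 FPKM. Large subunit genes had a median of 236 FPKM and ranged from 35.2 to 956 FPKM, so the subunits overlapped over most of their range.

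**Figure D1:**
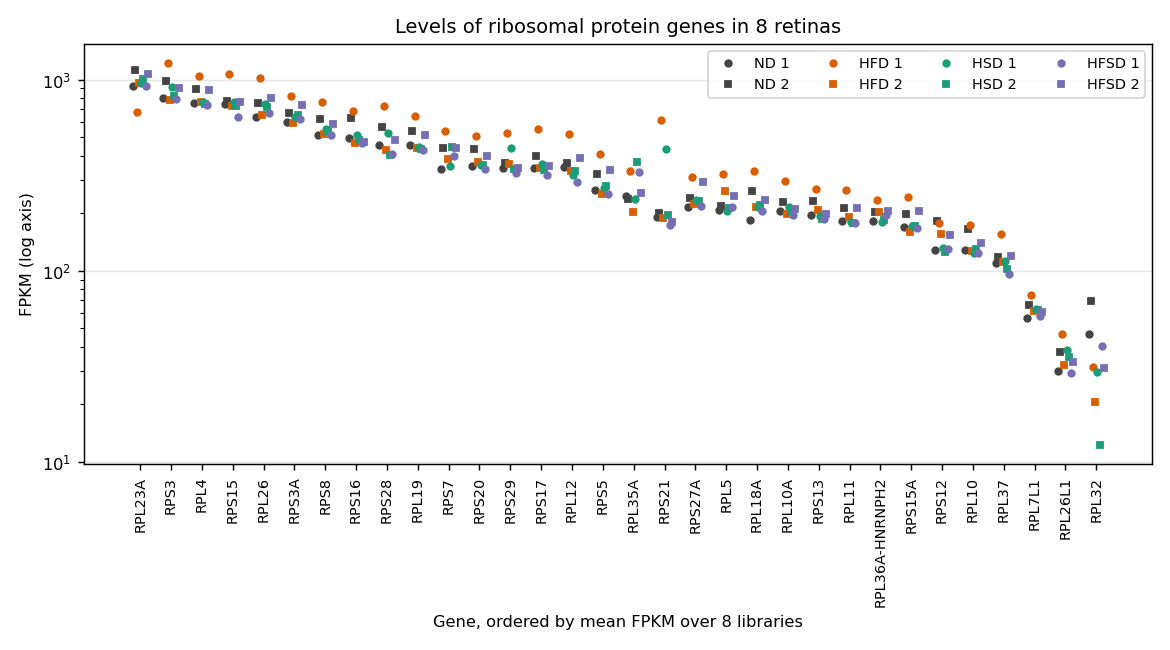
FPKM of 32 of the 33 tested ribosomal protein genes (log axis), ordered by their mean, with 1 point per library; circles are replicate 1 and squares are replicate 2 of each diet. Means run from 956 FPKM (RPL23A) to 35.2 FPKM (RPL32), and HFD replicate 1 (orange circles) is the highest point for most of them.

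Levels of a gene varied little between retinas. The ratio of the highest to the lowest library had a median of 1.57 over the 33 genes, close to the 1.53 of tested genes that were above 0 everywhere, and it exceeded 2 for only 2 of them, RPL32 (5.66) and RPS21 (3.54). The paralog RPL26L1 made up 4.02% to 4.93% of the summed FPKM of RPL26 and RPL26L1 in all 8 libraries. RPL26, a large subunit protein near the exit tunnel, is nearly identical to RPL26L1, so the split between them is uncertain.

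The ribosomal protein genes moved together from library to library. Relative to the mean of 8 libraries, on the scale of log2(FPKM + 1), their median lay at -0.12 and 0.11 for ND, at 0.41 and -0.10 for HFD, at -0.055 and -0.11 for HSD, and at -0.16 and 0.038 for HFSD. HFD replicate 1 was the high library, with 31 of 33 genes above their own mean, and HFSD replicate 1 and ND replicate 1 were the low ones, with 31 and 32 genes below it. The retinas of a diet therefore lay on opposite sides of the mean in ND, HFD and HFSD. Between the HFD retinas, replicate 1 exceeded replicate 2 by a median of 0.55 on the log2 scale (1.46-fold), with 32 genes higher and 1 lower. The corresponding difference of replicate 1 from replicate 2 was -0.23 in ND (32 of 33 genes lower), -0.20 in HFSD (31 lower) and 0.030 in HSD (23 higher). Over all tested genes these differences lay between -0.010 and 0.022.

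**Figure D2:**
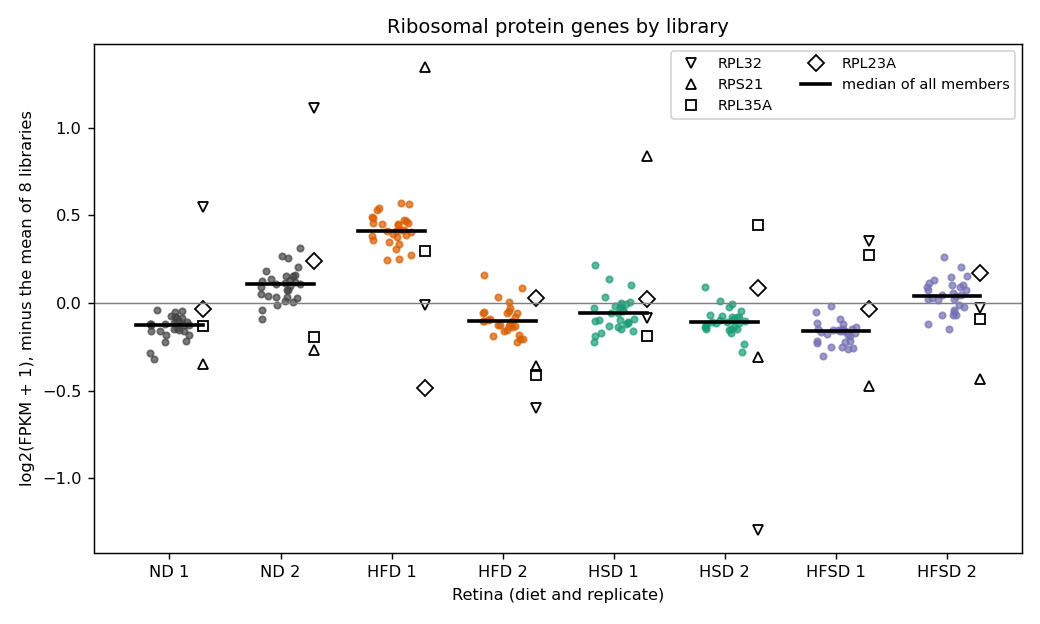
log2(FPKM + 1) of each tested ribosomal protein gene minus its mean over 8 libraries, for each retina; dots are genes, black bars are the median of all 33, and open symbols are RPL32, RPS21, RPL35A and RPL23A. The medians run from -0.16 in HFSD replicate 1 to 0.41 in HFD replicate 1, and the 4 open symbols leave the dots in at least 1 library.

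The subunits shared this pattern. In HFD replicate 1 the median was 0.42 for small and 0.42 for large subunit genes, and in HFSD replicate 1 it was -0.18 and -0.15. The FPKM summed over small subunit genes was 1.55 and 1.56 times that of large subunit genes for ND, 1.81 and 1.55 times for HFD, 1.68 and 1.50 times for HSD, and 1.50 times for each HFSD retina. The sums hold 17 of 32 listed small subunit genes and 13 of 47 listed large subunit genes. The size of the ratio therefore depends on which symbols the table carried. HFD replicate 1 and HSD replicate 1 were the high libraries. With RPS21 and RPL23A left out, a choice made after their values were seen, the highest ratio was in HSD replicate 1 (2.01) and no longer in HFD replicate 1. It was then 1.93 in HFD replicate 1 and 1.84 to 1.93 in the other 6 retinas.

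As a share of all protein-coding genes, the set was again highest in HFD replicate 1 and lowest in HFSD replicate 1, with another order in between. The 33 tested genes held 2.17% and 2.36% of the summed FPKM of protein-coding genes of the ND retinas (mean 2.27% ± 0.137, s.d., n=2). They held 2.72% and 2.16% for HFD (mean 2.44% ± 0.397), 2.35% and 2.23% for HSD (mean 2.29% ± 0.0836), and 2.12% and 2.44% for HFSD (mean 2.28% ± 0.230). HFD replicate 2 lay close to the lowest share, and the ranges of all 4 diets overlapped. The table carried only 32 of 79 standard ribosomal proteins by symbol, and 5996 protein-coding genes had no symbol. These are thus shares of the 33 tested genes and not of all ribosomal protein genes.

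Other genes moved with the ribosomal protein genes in HFD replicate 1, more so the shorter they were. The median was 0.24 for 796 other genes of up to 500 bases, 0.14 for 1849 genes of over 500 to 1000 bases, 0.053 for genes of over 1000 to 2000 bases, -0.020 for genes of over 2000 to 5000 bases, and -0.17 for genes over 5000 bases. Ribosomal protein genes are short, with a median length of 631 bases against 1987 bases for tested genes, and 22 of 33 were under 1000 bases. The 22 had a median of 0.43 in this library and the 11 of 1000 bases or more had 0.38, with all 11 above their mean, whereas other genes of these length classes had 0.17 and -0.018. Genes of other machineries were also high there, with medians of 0.28 for 51 nuclear genes of the respiratory chain, 0.23 for 52 proteins of the mitochondrial ribosome and 0.24 for 12 translation factors of the TOP class. The part of gene length in the difference of HFD replicate 1 was not tested.

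**Figure D3:**
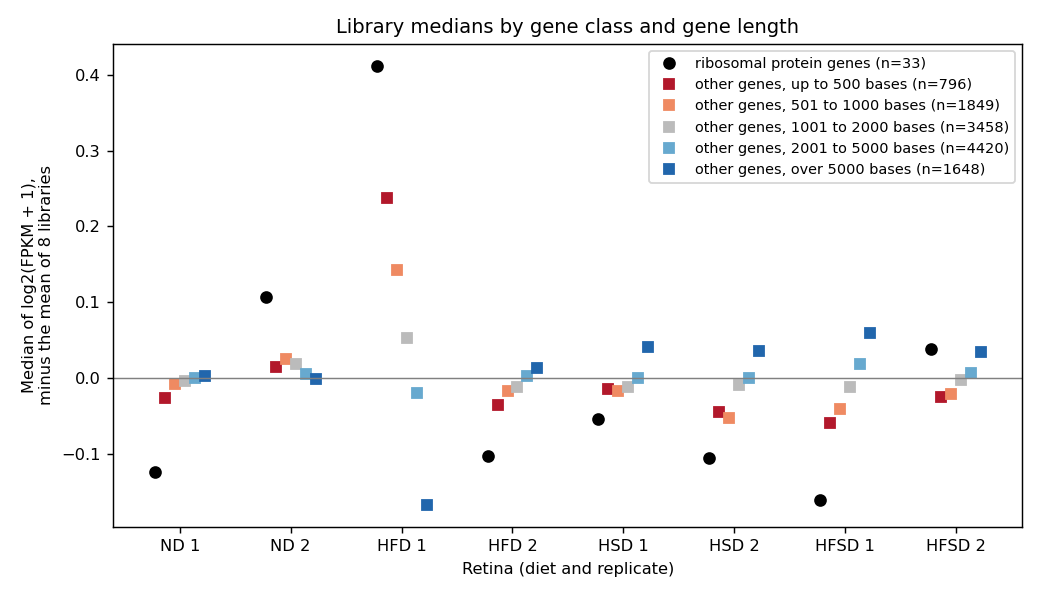
Median of log2(FPKM + 1) minus the mean of 8 libraries for the ribosomal protein genes (black circles) and for all other tested genes in 5 length classes (squares), for each retina. In HFD replicate 1 the squares descend with length from 0.24 to -0.17, and the ribosomal protein genes stand above them at 0.41.

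Cell type markers were set beside this pattern. Rod markers (5 of 8 listed genes had a row, none at 0) summed to 32063 and 36717 FPKM in ND, 37329 and 28301 FPKM in HFD, 29173 and 26844 FPKM in HSD, and 30701 and 27203 FPKM in HFSD. The rod sum was thus highest in HFD replicate 1 too. Microglia markers (8 of 8) summed to 21.7 and 14.1 FPKM in ND, 24.0 and 16.3 FPKM in HFD, 11.7 and 11.9 FPKM in HSD, and 9.76 and 13.0 FPKM in HFSD. Myelin markers (6 of 6) summed to 699 and 95.7 FPKM in ND and to 467 and 341 FPKM in HFD, against 45.4 to 154 FPKM in the sucrose diets. Müller cell markers (5 of 6) summed to 3289 and 4482 FPKM in ND and to 3829 and 3547 FPKM in HFD, against 2350 to 2470 FPKM in the sucrose diets. Pigment epithelium markers (7 of 7) were highest in ND, at 434 FPKM in both retinas against 106 to 259 FPKM in the other diets. Endothelial markers (6 of 6) summed to 146 FPKM in HFD replicate 1, the highest library, and to 99.8 to 137 FPKM in the others. Their median gave another order. Relative to the mean of 8 libraries on the log2 scale, the 4 tested markers were highest in ND replicate 1 (median 1.20), with 0.38 in HFD replicate 1. Cone markers (5 of 6) summed to 922 and 822 FPKM in ND and to 1010 and 683 FPKM in HFD, against 1201 to 1351 FPKM in the sucrose diets. Blood markers (2 of 4) stayed at 0.257 to 1.62 FPKM and lens markers (5 of 6) at 2.69 to 13.1 FPKM. Their part in the ribosomal protein levels was not tested, and in RNA of whole retinas fewer cells of a type cannot be told apart from less RNA per cell.

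The HFD was compared with ND to ask what added fat and cholesterol changed. On average ribosomal protein genes were slightly higher in HFD, with a median log2 difference of 0.15, but this rested on replicate 1. In all, 31 of 33 genes had a difference above 0, against 51.2% of tested genes. Without HFD replicate 1 the median was -0.077 and 5 genes were above 0, and without HFD replicate 2 it was 0.45. Differences were tested with limma on log2(FPKM + 1), with Benjamini-Hochberg adjustment over all tested genes. No ribosomal protein gene had an adjusted p under 0.05 (0 of 33, against 0.00819% of tested genes higher and 0% lower), and 0 did with voom, limma's model for counts, on recovered fragments (0.00819% of tested genes). At an unadjusted p under 0.05, limma gave 1 gene higher (1.8% of tested genes) and 1 lower (2.51% of tested genes), and voom gave 2 genes in all (4.29% of tested genes).

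The gene that was higher was RPL5, which binds 5S ribosomal RNA together with RPL11 and, outside the ribosome, can hold the p53 regulator MDM2. RPL5 measured 209 and 219 FPKM in ND, 321 and 261 FPKM in HFD, 204 and 212 FPKM in HSD, and 216 and 245 FPKM in HFSD. Both HFD retinas lay above all other retinas. RPL5 was the only one of 33 genes for which both HFD retinas lay above both ND retinas, which 12.5% of tested genes did. Its log2 difference was 0.43 (s.e. 0.14) with an adjusted p of 0.998 by limma (unadjusted p = 0.0159), and it was 0.28 without HFD replicate 1. Over the processing alternatives the adjusted p ran from 0.396 to 1.0. Its partner RPL11 measured 183 and 214 FPKM in ND and 263 and 190.1 FPKM in HFD, and these groups overlapped. RPL5 was 1.22 and 1.37 times RPL11 in HFD and 1.02 to 1.22 times in the other retinas, a range that overlapped with HFD.

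Of the other members, RPS29, a small subunit protein with a zinc finger, measured 344 and 365 FPKM in ND and 527 and 363 FPKM in HFD. RPS16, which reaches the tRNA sites of the small subunit, measured 494 and 626 FPKM in ND and 684 and 466 FPKM in HFD. In each of these genes the difference between the HFD retinas was larger than that between the group means. RPS3, which also has a part in DNA repair, measured 798 and 983 FPKM in ND and 1219 and 784 FPKM in HFD, for a log2 difference of 0.14 (s.e. 0.24), which was -0.18 without HFD replicate 1. RPS27A, which is made as a fusion with ubiquitin, had a log2 difference of 0.21 (s.e. 0.20), which was -0.028 without that retina.

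**Figure D4:**
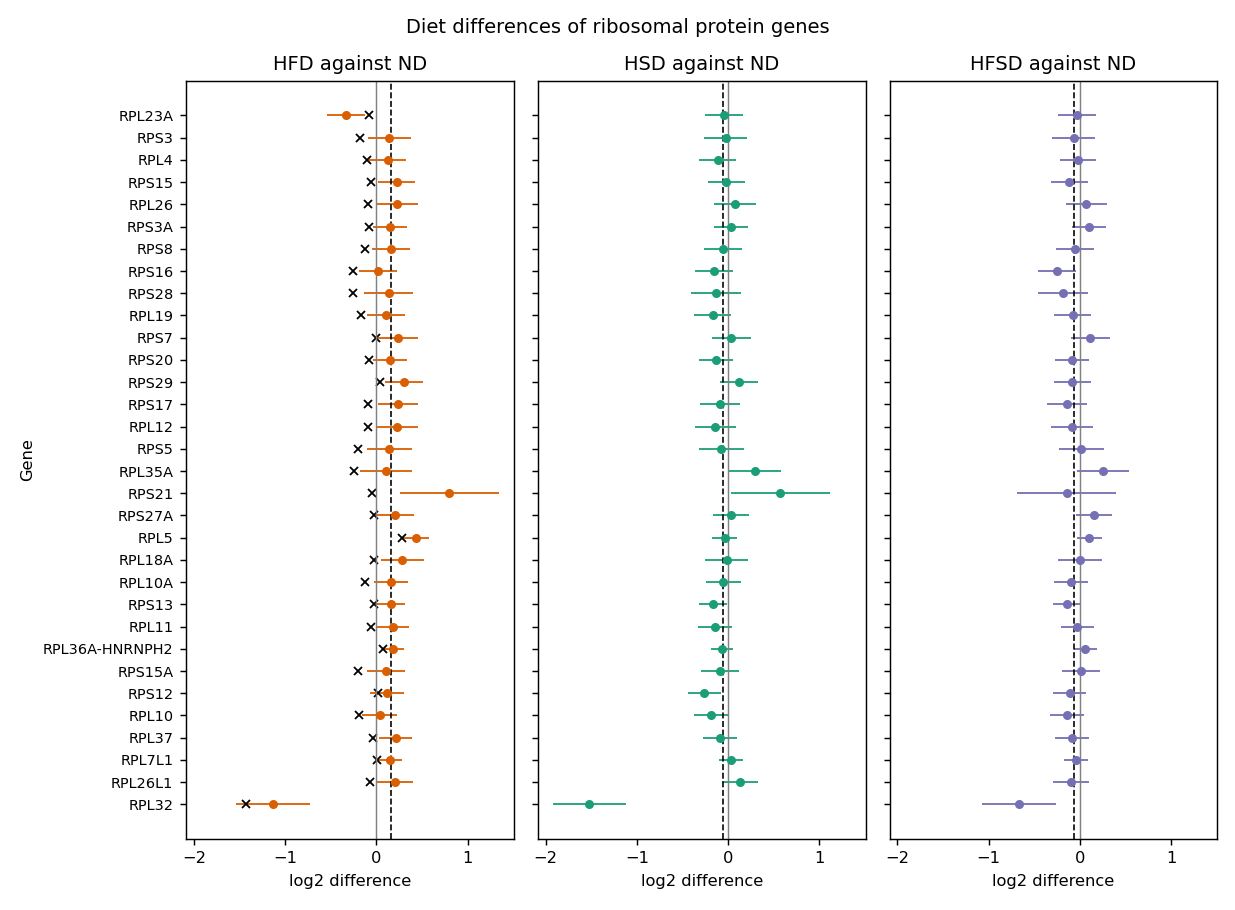
log2 difference from ND of 32 of the 33 tested ribosomal protein genes for HFD, HSD and HFSD; points are limma estimates, bars are their s.e. (n=2 retinas per diet), dashed lines are the median of the 33 genes, and crosses in the HFD panel are the values without HFD replicate 1. The HFD median of 0.15 of all 33 genes becomes -0.077 without HFD replicate 1, and RPL32 is the lowest gene in all 3 panels.

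The HSD was compared with ND to ask what added sucrose changed. The median log2 difference of ribosomal protein genes was -0.056, and 24 of 33 genes lay below 0, against 50.5% of tested genes. It was 0.024 without ND replicate 2. Scaling each library to the same summed FPKM moved all tested genes alike, from a median of -0.0018 to 0.050, and gave ribosomal protein genes a median of -0.0010, with 16 genes above 0 and 17 below. No gene had an adjusted p under 0.05 by limma (0 of 33, against 0.0246% of tested genes higher and 0.0328% lower) or voom (0 of 33, against 0.0164%). Only RPL32 had an unadjusted p under 0.05, and it was lower, as were 4.51% of tested genes, while 2.7% were higher. With voom 1 gene did (6.51% of tested genes). Both HSD retinas lay below both ND retinas for 5 genes (15.2%, against 19.7% of tested genes), RPL32, RPL19, RPL12, RPL11 and RPS13, and above them for none, against 19.3% of tested genes.

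After RPL32 the lowest differences in HSD were those of RPS12 and RPL10. RPS12, a protein at the beak of the small subunit, measured 129 and 183 FPKM in ND and 131 and 125 FPKM in HSD, so that ND replicate 2 stood above the other 3. Its log2 difference was -0.26 (s.e. 0.18, adjusted p = 0.801 by limma). RPL10 measured 128 and 165 FPKM in ND and 124 and 130.4 FPKM in HSD, with a log2 difference of -0.19 (s.e. 0.19). Without ND replicate 2 the difference was -0.011 for RPS12 and -0.0055 for RPL10. The paralog RPL26L1 was among the highest, at 0.13 (s.e. 0.20), with 29.9 and 37.8 FPKM in ND and 38.6 and 35.3 FPKM in HSD.

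The HFSD was compared with ND to ask what fat and sucrose changed together. The median log2 difference was -0.070, with 24 of 33 genes below 0, against 50.8% of tested genes, and with equal summed FPKM it was -0.022, with 14 genes above 0 and 19 below, while the median of all tested genes moved from -0.0040 to 0.042. The median was 0.065 without ND replicate 2 and 0.054 without HFSD replicate 1. No gene had an adjusted p under 0.05 by limma (0 of 33, against 0.00819% of tested genes in each direction) or voom (0 of 33, against 0.0328%), and 0 had an unadjusted p under 0.05 with either (3.7% of tested genes higher and 4.37% lower by limma, 7.93% in all by voom). RPL32, RPS16 and RPS21 lay below both ND retinas in both HFSD retinas (9.09%, against 20.6% of tested genes), and RPL35A lay above them (3.03%, against 21.6%). RPS16 measured 467 and 470.3 FPKM in HFSD, for a log2 difference of -0.25 (s.e. 0.21, adjusted p = 0.796 by limma), which was -0.076 without ND replicate 2. RPS28, a protein near the mRNA exit of the small subunit, measured 455 and 565 FPKM in ND and 409.8 and 483 FPKM in HFSD, and the groups overlapped. The small subunit genes RPS27A and RPS7 were among the highest, with log2 differences of 0.15 (s.e. 0.20) and 0.12 (s.e. 0.22). RPS27A measured 214 and 241 FPKM in ND and 219 and 292 FPKM in HFSD, and RPS7, which is needed for processing of the small subunit RNA, measured 339.8 and 441 FPKM in ND and 399 and 441 FPKM in HFSD. For RPS27A an HFSD retina lay within the ND range, and for RPS7 both did.

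All 3 comparisons used the same ND retinas. In the same model the sucrose effect (the mean of HSD and HFSD against that of ND and HFD) had a median of -0.16, with 31 of 33 genes below 0, against 51.3% of tested genes, and with equal summed FPKM it was -0.075, with 27 below 0, while the median of all tested genes moved from -0.0073 to 0.069. It was -0.016 without HFD replicate 1, with 20 genes below 0. The fat effect (HFD and HFSD against ND and HSD) had a median of 0.096 with 29 genes above 0, against 52.6% of tested genes, and the interaction of fat and sucrose had -0.15 with 28 genes below 0, against 48.1%. Without HFD replicate 1 the median of the fat effect was -0.038 and that of the interaction was 0.12. No gene had an adjusted p under 0.05 by limma in these contrasts (0 of 33 in each). The background of such calls was 0.0574% higher and 0.287% lower for sucrose, 0.00819% and 0% for fat, and 0% and 0.00819% for the interaction. With unadjusted p, the sucrose effect passed 0.05 for 0 genes (9.17% of tested genes higher, 9.16% lower). The fat effect did for RPL5, which was higher (0.29, s.e. 0.098, unadjusted p = 0.0206 by limma, against 1.2% of tested genes higher and 2% lower). The interaction did for RPL32, which was above 0 (1.99, s.e. 0.57, unadjusted p = 0.00919 by limma, against 1.77% of tested genes above and 1.97% below). With voom these numbers were 0, 1 and 1, against 18.8%, 3.02% and 3.6% of tested genes, and 0 genes had an adjusted p under 0.05, against 0.147%, 0.00819% and 0%.

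Not all ribosomal protein genes kept to the common pattern. In 29 of 33 genes every library lay within 0.27 of the median of the set on the log2 scale, with RPS29 at the edge. The other 4 genes, RPL32, RPS21, RPL35A and RPL23A, were over 0.5 away in at least 1 library.

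RPL32, a protein of the large subunit, was highest in the ND retinas. It measured 46.6 and 69.6 FPKM in ND, 31.3 and 20.5 FPKM in HFD, 29.7 and 12.3 FPKM in HSD, and 40.7 and 31.0 FPKM in HFSD. The ND retinas lay above all 6 retinas of the other diets, with a mean of 58.1 ± 16.2 FPKM (s.d., n=2) against 25.9 ± 7.64, 21.0 ± 12.3 and 35.8 ± 6.83 FPKM. The values rest on 98 fragments in HSD replicate 2 (12.3 FPKM, exact 95% Poisson interval 9.98 to 15.0, counting error only) and on 569 in ND replicate 2 (64.0 to 75.5 FPKM). The log2 difference from ND was -1.14 (s.e. 0.40) in HFD, -1.52 (s.e. 0.40) in HSD and -0.67 (s.e. 0.40) in HFSD, and the adjusted p by limma was 0.998, 0.438 and 0.699. With a library left out they ran from -1.43 to -0.84 in HFD, from -2.12 to -0.92 in HSD (the latter without HSD replicate 2) and from -0.95 to -0.38 in HFSD (the latter without ND replicate 2). The unadjusted p in HSD was 0.00623, and over the alternatives its adjusted p ran from 0.164 to 0.984. RPL32 was below the ND retinas also in HFD replicate 1, where 31 of the 33 genes lay above their own mean.

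RPS21, a protein of the small subunit, was high in 1 retina each of HFD and HSD. It measured 190.1 and 201 FPKM in ND, 617 and 189 FPKM in HFD, 433 and 196 FPKM in HSD, and 174 and 179 FPKM in HFSD. The 6 low retinas lay between 174 and 201 FPKM, and the high ones stood at 617 FPKM (596 to 639, exact 95% Poisson interval) and 433 FPKM (413 to 454). The log2 difference was 0.80 (s.e. 0.54) in HFD and 0.57 (s.e. 0.54) in HSD, with adjusted p of 0.998 and 0.843 by limma. Without the high retina they were -0.053 and 0.0014. RPS21 had the shortest gene model of the set, with 252 bases.

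RPL35A, a large subunit protein whose loss of function causes Diamond-Blackfan anaemia in humans, measured 247 and 237 FPKM in ND, 333 and 204 FPKM in HFD, 238 and 369 FPKM in HSD, and 328 and 255 FPKM in HFSD. Its high retinas were HSD replicate 2, HFD replicate 1 and HFSD replicate 1, which differs from the order of the set. The log2 difference was 0.29 (s.e. 0.28) in HSD and 0.25 (s.e. 0.28) in HFSD, with adjusted p of 0.850 and 0.848 by limma. It was -0.026 without HSD replicate 2 and 0.073 without HFSD replicate 1, respectively.

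RPL23A, which docks factors that meet the new protein at the tunnel exit, measured 925 and 1119 FPKM in ND, 677 and 965 FPKM in HFD, 963 and 1007 FPKM in HSD, and 926 and 1066 FPKM in HFSD. Its lowest library was HFD replicate 1, the highest library of 29 other genes. It was 3.04 to 3.70 times the median of the set in the other 7 retinas and 1.33 times in HFD replicate 1. The log2 difference in HFD was -0.33 (s.e. 0.21, adjusted p = 0.998 by limma), and -0.076 without this retina.

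**Figure D5:**
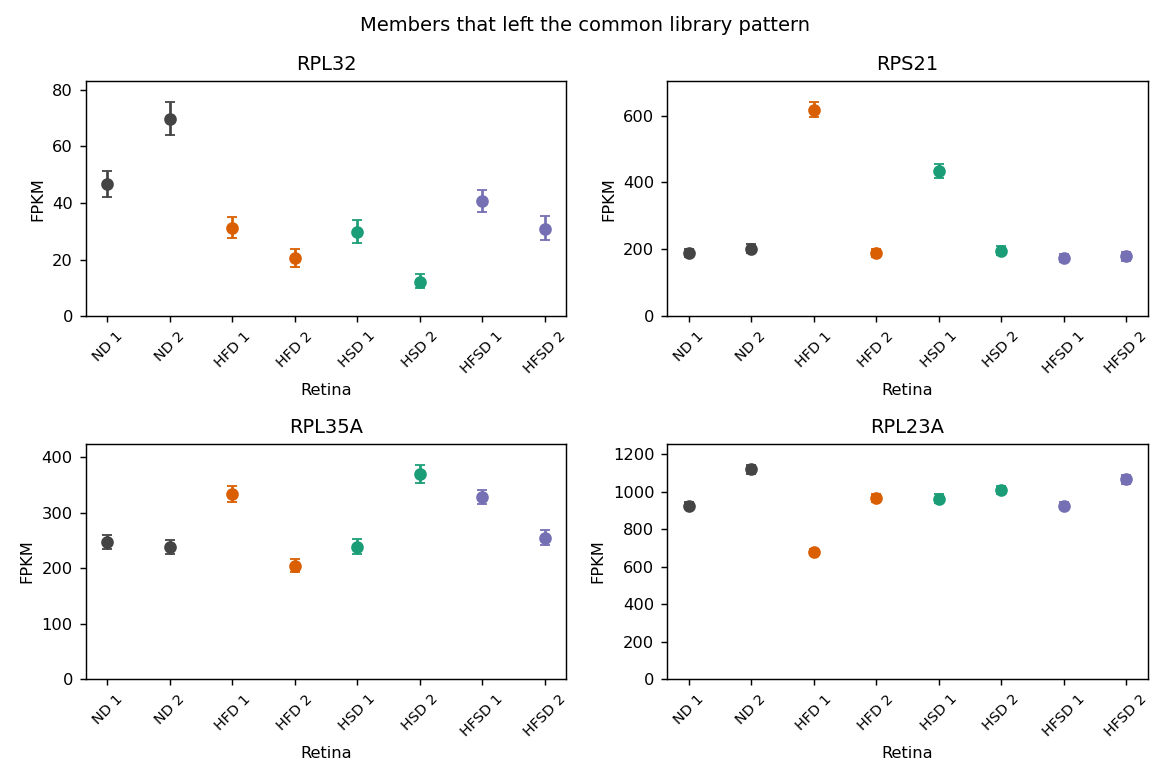
FPKM of RPL32, RPS21, RPL35A and RPL23A in each retina, with exact 95% Poisson intervals of the fragments behind each value (counting error only). RPL32 is highest in the ND retinas, RPS21 is high in HFD replicate 1 (617 FPKM) and HSD replicate 1 (433 FPKM), RPL35A is highest in HSD replicate 2 (369 FPKM), and RPL23A is lowest in HFD replicate 1 (677 FPKM).

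The study selected genes by the ratio of FPKM + 1 between a diet and the control, with a lower limit of 0.65 and an upper limit close to its inverse. It does not state how the 2 retinas were combined, and their mean FPKM was used here. By this rule 2 ribosomal protein genes passed in HFD, RPS21 above (2.05, as did 1.38% of tested genes) and RPL32 below (0.456, as did 1.16%). The same 2 genes passed in HSD, RPS21 at 1.60 (1.76% of tested genes) and RPL32 at 0.372 (3.54%), and RPL32 alone passed in HFSD at 0.623 (3.54%, with 1.52% above and no ribosomal protein gene among them). RPS21 no longer passed without HFD replicate 1 or HSD replicate 1, respectively. RPL32 no longer passed in HFSD without ND replicate 2 or without HFSD replicate 2.

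Genes that work with the ribosome were read from the same fit. Of 12 tested translation factors of the TOP class (20 listed), such as elongation factors, 0 had an adjusted p under 0.05 by limma in any diet, and their median log2 difference was 0.11 for HFD, -0.066 for HSD and -0.011 for HFSD. Of 22 initiation factors and of 11 regulators of ribosome production and use, 0 passed. The medians of initiation factors were 0.078 for HFD, -0.020 for HSD and 0.034 for HFSD, and those of the regulators were -0.18, 0.0061 and 0.015. In HFD 1 of the 11 regulators had a difference above 0 (51.2% of tested genes), and in 5 of them (45.5%, against 13.3% of tested genes) both HFD retinas lay below both ND retinas. Both lay above in 0 (12.5% of tested genes). In HSD 4 regulators lay above both ND retinas (36.4%, against 19.3%) and 3 below (27.3%, against 19.7%). In HFSD 4 lay above (36.4%, against 21.6%) and 4 below (36.4%, against 20.6%). In the other lists both HFD retinas lay above both ND retinas in 3 of 12 TOP factors (25%), 5 of 22 initiation factors (22.7%), 9 of 37 assembly factors (24.3%) and 17 of 52 mitochondrial ribosomal proteins (32.7%), against 12.5% of tested genes. In the same order, 0%, 9.09%, 13.5% and 1.92% lay below (13.3% of tested genes). In HSD 8.33%, 27.3%, 21.6% and 15.4% lay above (19.3%), and 33.3%, 31.8%, 21.6% and 25% below (19.7%). In HFSD 16.7%, 36.4%, 10.8% and 11.5% lay above (21.6%), and 8.33%, 22.7%, 32.4% and 26.9% below (20.6%). Of 37 ribosome assembly factors and 52 mitochondrial ribosomal proteins, 0 passed too, with medians of 0.060 and 0.090 for HFD, 0.015 and -0.048 for HSD, and -0.061 and -0.054 for HFSD. Below the lower limit of the fold rule lay 2 of these genes, MRTO4 in HSD and HFSD (3.54% of tested genes in each) and MRPL17 in HFD (1.16% of tested genes), and 0 lay above the upper limit. MRTO4, which helps to form the stalk of the large subunit, measured 11.6 and 19.3 FPKM in ND, 16.1 and 21.2 FPKM in HFD, 5.26 and 4.41 FPKM in HSD, and 11.8 and 4.43 FPKM in HFSD, and its log2 difference was -1.46 (s.e. 0.40, adjusted p = 0.443) in HSD and -0.94 (s.e. 0.40, adjusted p = 0.616) in HFSD. MRPL17, a protein of the mitochondrial large subunit, measured 16.6 and 17.0 FPKM in ND and 9.78 and 8.65 FPKM in HFD, and its log2 difference was -0.81 (s.e. 0.15, adjusted p = 0.537 by limma). Both HSD retinas for MRTO4 (as for 19.7% of tested genes) and both HFD retinas for MRPL17 (as for 13.3%) lay below the ND retinas, while for MRTO4 HFSD replicate 1 lay between them.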

How the data were processed

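Per the labels and the study's methods, RNA of 8 retinas was extracted with TRIzol and sequenced from TruSeq libraries. The authors trimmed the reads after a FastQC check and aligned them to rabbit with TopHat2 at up to 2 mismatches. They kept uniquely placed reads and turned them into FPKM in R. The deposited table gives these FPKM for 25666 genes and 8 libraries. Genome build, annotation and strand of counting are not given in the sources used here, so no coordinates are given, and overlapping genes may share reads. All value columns had a sample (0 columns left over).

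FPKM values were whole multiples of 1 fragment for 100.0% of values above 0 (within 0.001 of a fragment, or 2e-08 of the value up to 0.02), which gave gene lengths, depths (15764577 to 22785832) and fragments. The planned test depended on the unit. As the values are FPKM, limma (3.58.1, R 4.3.3) was fitted to log2(FPKM + 1) with a mean-variance trend, 8 libraries and 4 diet means. The fit covered 12204 protein-coding genes that reached 1 FPKM in 2 or more libraries, and p was adjusted by Benjamini-Hochberg over them. On this scale the change of low genes is understated. Alternatives varied the pseudocount, filter, scaling, trend, gene set, block and libraries, or used voom. The steps were tested on simulated data.

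Members and lists were chosen with earlier results of these data known. Genes were named if adjusted p was under 0.05, if among the 3 highest or lowest differences of a diet, if past the fold rule, if among the 5 highest or lowest levels, or for their role. A gene that this rule names is not reported here. Other genes were named after their values were seen. RefSeq (mOryCun1.1) listed 35 of the 37 symbols.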

Additional observations from a re-analysis of the deposited data

Results flagged for a closer look

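RPL3L in HSD replicate 2 measured 3.08 FPKM (92 fragments), a signal outside the tested genes that exceeded the ND retinas (0.591 and 0.784 FPKM). RPL3L is the form of RPL3 used in skeletal muscle and heart. It measured 0.348 to 0.856 FPKM in the other 7 retinas, and its exact 95% Poisson interval in HSD replicate 2 was 2.49 to 3.78 FPKM (counting error only). The muscle genes MYL1 (141 FPKM), ACTA1 (105 FPKM) and CKM (57.1 FPKM) were highest in the same retina, and their part in the RPL3L value was not tested.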

How the results depend on the processing

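The medians of the 6 contrasts did not change sign under the alternatives other than leaving out a library. The trend and the block leave each gene's difference as it is, so they could not move these medians. With equal summed FPKM the medians were 0.096 for HFD, -0.0010 for HSD, -0.022 for HFSD, -0.075 for sucrose, 0.063 for fat and -0.096 for the interaction. This scaling moved the median of all tested genes alike, to -0.049, 0.050, 0.042, 0.069, -0.023 and 0.061. With voom they were -0.019 for HSD and -0.035 for HFSD. With each library left out in turn, the median ran from -0.077 to 0.45 in HFD, from -0.18 to 0.024 in HSD, from -0.17 to 0.065 in HFSD, from -0.29 to -0.016 for sucrose, from -0.038 to 0.22 for fat and from -0.40 to 0.12 for the interaction. HFD replicate 1 turned the direction in HFD, fat and the interaction, ND replicate 2 in HSD (0.024) and HFSD (0.065), and HFSD replicate 1 in HFSD (0.054). Without HFD replicate 2, 17 members had an unadjusted p under 0.05 in HFD (9.85% of tested genes), and 14 (25%) for sucrose, 6 (7.01%) for fat and 10 (6.83%) for the interaction. No member had an adjusted p under 0.05 in any setting (0 in each). The fold rule gave 1 to 2 members in HFD, 1 to 2 in HSD and 0 to 1 in HFSD. The share of summed FPKM ran from 2.17% to 2.36% in ND, 2.16% to 2.72% in HFD, 2.23% to 2.35% in HSD and 2.12% to 2.44% in HFSD. It was 2.08% in ND and 2.11% in HSD without RPL23A, and 2.12% and 2.15% with all genes in the denominator, since these leave out a gene or add genes. Of 375 alternatives for 21 differences of the genes at the extremes of a comparison, 8 turned a direction, 7 of them by leaving out a library: their differences then ran from -0.034 to 0.30 for RPL26L1 and from -0.026 to 0.61 for RPL35A in HSD, from -0.26 to 0.30 for RPS16 (which turned at -0.15 and -0.26) and from -0.053 to 1.65 for RPS21 in HFD, and from -0.056 to 0.36 for RPS27A and from -0.072 to 0.30 for RPS7 in HFSD. RPS16 in HFD was also -0.038 with equal summed FPKM, where the median of all tested genes was -0.049. The cause was not tested. Many of the 375 alternatives could not turn a direction, since they leave a gene's difference as it is. These were the filters, the trend, the wider set of fitted genes, the block and leaving out a library outside the comparison. Each diet had a retina of each replicate number, so a block for this number could not move a difference. The medians were therefore the same with it, at 0.15 in HFD, -0.056 in HSD, -0.070 in HFSD, -0.16 for sucrose, 0.096 for fat and -0.15 for the interaction. The block changed no call. Same-numbered retinas shared only a number, as their deviations correlated at -0.16 to 0.081 over genes. With a lone retina in a diet its spread is assumed to be that of the other groups.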
